A study of Caenorhabditis elegans with 6 samples.

Results

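The genes described here are the weakly expressed col genes of Caenorhabditis elegans, 94 of the 128 col genes and of the 17138 genes that had a probe set of their own on the Affymetrix C. elegans genome array. A gene was taken as a col gene if its symbol in the platform annotation is col followed by a number, it was read from its probe set with the highest mean signal over the 6 arrays among those that name this gene alone, and it was kept if that mean was under 1000. The members were thus chosen by their mean signal alone, and these means lay between 6.83 for col-105 and 973 for col-124, with a median of 83.3. Just inside the limit were col-124 at 973, col-91 at 899.9 and col-66 at 863, and just outside it were col-14 at 1033, col-104 at 1281 and col-48 at 1292. The 34 col genes at or over 1000 are named only where a result turns on them. Signal is the linear MAS 5 value of a probe set, scaled so that each array had the same trimmed mean of 500.2, and it has no physical unit.

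The experiment asked which genes respond when canonical Wnt signaling is switched on in larvae for a short time. Whole worms of 2 strains were compared, with 3 arrays each, and both were given a heat shock of 30 min at the L2/L3 molt, with the labels calling the stage L3. The labels give 30 °C for this heat shock on every array, and the methods a higher temperature. By the methods, worms were collected after 1 hr of recovery. hs::ΔNTbar-1 worms carried the integrated array huIs7, which holds hsp16.2::MycΔNTbar-1, mec-7::GFP and dpy-20(+) and expresses from a heat shock promoter a Myc-tagged BAR-1 beta-catenin without its amino terminus. hs::control worms carried the integrated array deIs14, made by injecting the empty heat shock vector pPD49.78 with mec-7::GFP and dpy-20(+) into dpy-20(e1282) mutants. Each condition was 1 strain and no sample came from animals without heat shock, so any other difference between the strains cannot be told apart from a response to ΔNTBAR-1. The bar-1 signal, which includes the transgene, was 7755, 20991 and 16009 on the 3 hs::ΔNTbar-1 arrays, against 586, 519.5 and 575 on the 3 hs::control arrays, and every array lay on the side its label gives.

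Cuticle collagens are secreted by the epidermis, which lays down a new cuticle beneath the old one before each molt. Their genes form a large family in which many members are used at a particular stage, so that the cuticles of the larva, the dauer larva and the adult differ in composition. Most single col genes have no mutant phenotype that sets them apart, and little is known of what each contributes to the cuticle. Nearly all col genes encode such cuticle collagens, and col-99, a member here, is an exception in encoding a transmembrane collagen of the nervous system.

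Many of these genes were near the floor of the array in both groups. A signal of 100 was used as a line between low and measurable, since between 43.1% and 45.6% of all probe sets were under it on a given array and no detection calls were used. By that line, 40 of the 94 genes were under 100 on all 6 arrays, 27 were at or over 100 on all 6, and 27 had arrays on both sides. Between 36 and 45 of the genes were at or over 100 on a single hs::ΔNTbar-1 array, and between 37 and 43 on a single hs::control array, so the number of col genes with a measurable signal overlapped between the groups. Summed over the 94 genes, the signal was 16548, 19424 and 18244 on the hs::ΔNTbar-1 arrays and 16229, 14492 and 17543 on the hs::control arrays, and these sums overlapped as well. The median standard deviation within a group was 0.38 on the log2(signal + 16) scale for the 52 genes with a mean under 100 and 0.29 for the 42 with a higher mean.

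**Figure D1:**
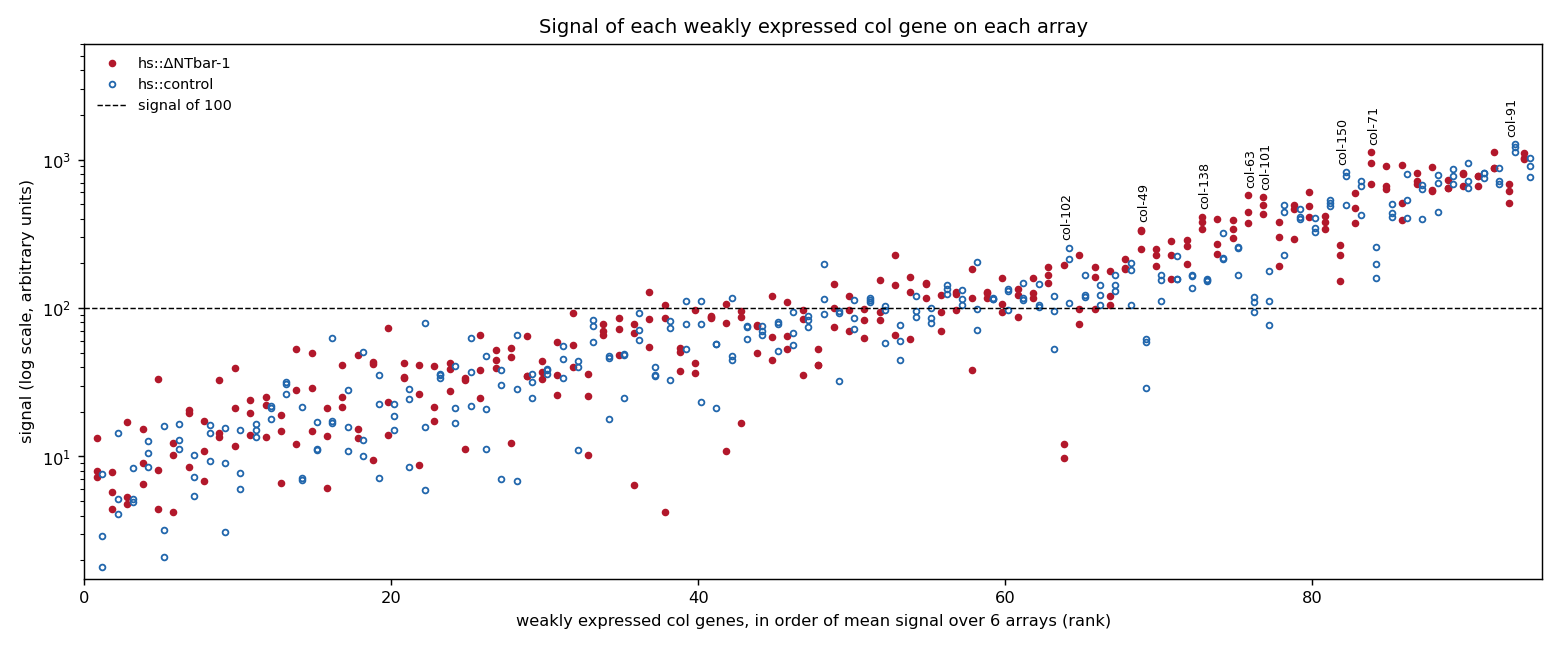
Signal of each of the 94 weakly expressed col genes on each array (log scale, arbitrary units), with genes in order of mean signal, filled points for the 3 hs::ΔNTbar-1 arrays and open points for the 3 hs::control arrays. The dashed line is a signal of 100, which 40 genes did not reach on any array, and named genes are those described in the text for a separation of the groups or, for col-102, of arrays within a group.

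Of the 94 genes, 5 rose in hs::ΔNTbar-1 worms and none fell by limma's test, at an adjusted p under 0.05 over all 22548 probe sets tested. The 5 were col-49, col-71, col-63, col-101 and col-138. In whole animals, a difference in the number of cells that express a gene and one in RNA per cell cannot be told apart. Over all 17138 genes the same test called 0.443% higher and 0.286% lower. At an unadjusted p under 0.05, 15 of the 94 genes were higher and 7 lower (16% and 7.45%), against 7.25% and 6.69% of all genes. The log2 fold change was above 0 in 55 of the genes and below 0 in 39. Its median was 0.13 with quartiles at -0.15 and 0.51, and the values ranged from -1.89 to 2.32, whereas the median over all genes was 0.00.

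Only 1 gene was switched on in the sense of crossing the line, with all 3 hs::control arrays under 100, all 3 hs::ΔNTbar-1 arrays at or over it, and at least a 2-fold ratio of the means, and 0 genes were switched off by the same rule turned round. Over all genes, 0.0992% crossed the line upward and 0.0467% downward. The gene was col-49, whose signal was 337, 330.1 and 249 on the hs::ΔNTbar-1 arrays and 61.6, 59.1 and 28.9 on the hs::control arrays. Its lowest hs::ΔNTbar-1 value was thus several times its highest hs::control value. The log2 fold change was 2.32 ± 0.25 (SE, n = 3 per group, with an adjusted p of 0.0194 by limma), or 4.98-fold on the log2(signal + 16) scale, which understates differences of dim genes. Which genes crossed depended on the line. At a line of 50 col-33 crossed upward and col-40 downward, and at 200 col-49, col-63, col-101 and col-138 crossed upward and 0 genes downward. Without hs::ΔNTbar-1 replicate 3, col-36 joined col-49 upward and col-102 crossed downward, and without hs::control replicate 2, col-158 joined it upward and col-58 crossed downward.

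The other 4 genes that rose had means over 100 in hs::control worms already. col-71 had a signal of 940.4, 1127 and 680.4 on the hs::ΔNTbar-1 arrays and 256, 158 and 199 on the hs::control arrays. This was the brightest of the 5, with groups well apart and a log2 fold change of 2.08 ± 0.24 (SE, n = 3 per group, adjusted p = 0.0259, limma). col-63 had 371, 575 and 446 in hs::ΔNTbar-1 worms, against 118, 93.3 and 110.5 in hs::control worms, where all 3 arrays lay close to the line. Its log2 fold change was 1.94 ± 0.18 (adjusted p = 0.0140, limma). col-101 had 492, 428 and 558 in hs::ΔNTbar-1 worms, against 77.3, 178 and 112 in hs::control worms, so that 1 of its control arrays was under the line and the control values were spread more than those of col-63. It had the same log2 fold change of 1.94, with a larger error of 0.28, and was the closest of the 5 to the threshold (adjusted p = 0.0496, limma). col-138 had 343, 412 and 381 in hs::ΔNTbar-1 worms, against 152, 157 and 154 in hs::control worms. Its difference was the smallest of the 5 at 1.21 and also the most precise, with an error of 0.11 (adjusted p = 0.0135, limma), and the 3 control arrays were nearly equal.

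These calls depended on having all 6 arrays. With any 1 array left out, limma called 0 or 1 of the 5 genes, and over all probe sets it then called 23 to 44 in place of 152. The call that stood was col-63 without hs::ΔNTbar-1 replicate 1 (adjusted p = 0.0472), col-101 without hs::control replicate 2 (0.0477) and col-49 without hs::control replicate 3 (0.0398), and no call stood without hs::ΔNTbar-1 replicate 2 or 3 or hs::control replicate 1. Each of the 5 genes still had an unadjusted p under 0.05 with any array left out, and the adjusted p of the 5 stayed between 0.0398 and 0.175. With a pseudocount of 1 in place of 16, only col-63 (adjusted p = 0.0342) and col-138 (0.0282) were called.

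Quantitative PCR primers of the study are shown for col-71, col-101 and col-138, 3 of the genes that rose, because the reverse primer of col-138 shows how alike 2 col genes can be in sequence. The primers of col-150 and col-91, which had the lowest adjusted p-values among genes that were lower, and of col-180, a col gene over the limit, are given with them, each 5′ to 3′.
col-71 forward: tgttggagttgaagaaggaccac
col-71 reverse: gtggggttactggctcacat
col-101 forward: atgagtacaagagattcgaaggagtagc
col-101 reverse: gcttccaactccacaagagc
col-138 forward: aagacaaggaccacaaggagag
col-138 reverse: taatatcctggAgcagttcttggt
col-180 forward: atcacaaggaccagtcggagac
col-180 reverse: ttaatatcctggGgcagttcttggt
col-150 forward: gaagtccatgaagaagttttggatggtgtg
col-150 reverse: ttgacggaagacagagttaaatgga
col-91 forward: ttgacgagttcaagatcaatgagaagaatg
col-91 reverse: ttttagcaagagcttgacagtctgg
Capitals mark the base by which the reverse primers of col-138 and col-180 differ. Over the 24 bases of the col-138 primer they share 23, and the difference is A12G, with the col-138 base first and positions counted from 1 at the 5′ end of that primer. On the array the pair went opposite ways, since col-180 had 2116, 2783 and 2538 in hs::ΔNTbar-1 worms, against 6020.1, 6251 and 6405 in hs::control worms, a log2 fold change of -1.33 (adjusted p = 0.0150, limma). Both genes were read from probe sets of the plain type, which the array's design takes to be specific to their gene, whereas col-71, col-63 and col-101 were read from _s_at sets, whose probes can match several related transcripts. Without _s_at and _x_at sets, limma called 2 of the 67 col genes then under the limit, both higher. These 67 were 66 of the 94 genes and col-157, which came under the limit by its other probe set.

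Groups of arrays were apart without a call in many more genes. All 3 hs::ΔNTbar-1 arrays were above all 3 hs::control arrays in 18 of the 94 genes (the 5 that rose included), or 19.1%, against 11% of all genes, and all 3 were below in 8 genes, or 8.51%, against 10.5% of all genes. Among all 14584 genes with a mean signal under 1000 these shares were 9.87% and 8.65%, and among the 34 brighter col genes they were 38.2% and 5.88%. With 3 arrays per group an exact two-sided permutation test cannot give a p below 0.1, so such a separation in a single gene is not a call.

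**Figure D2:**
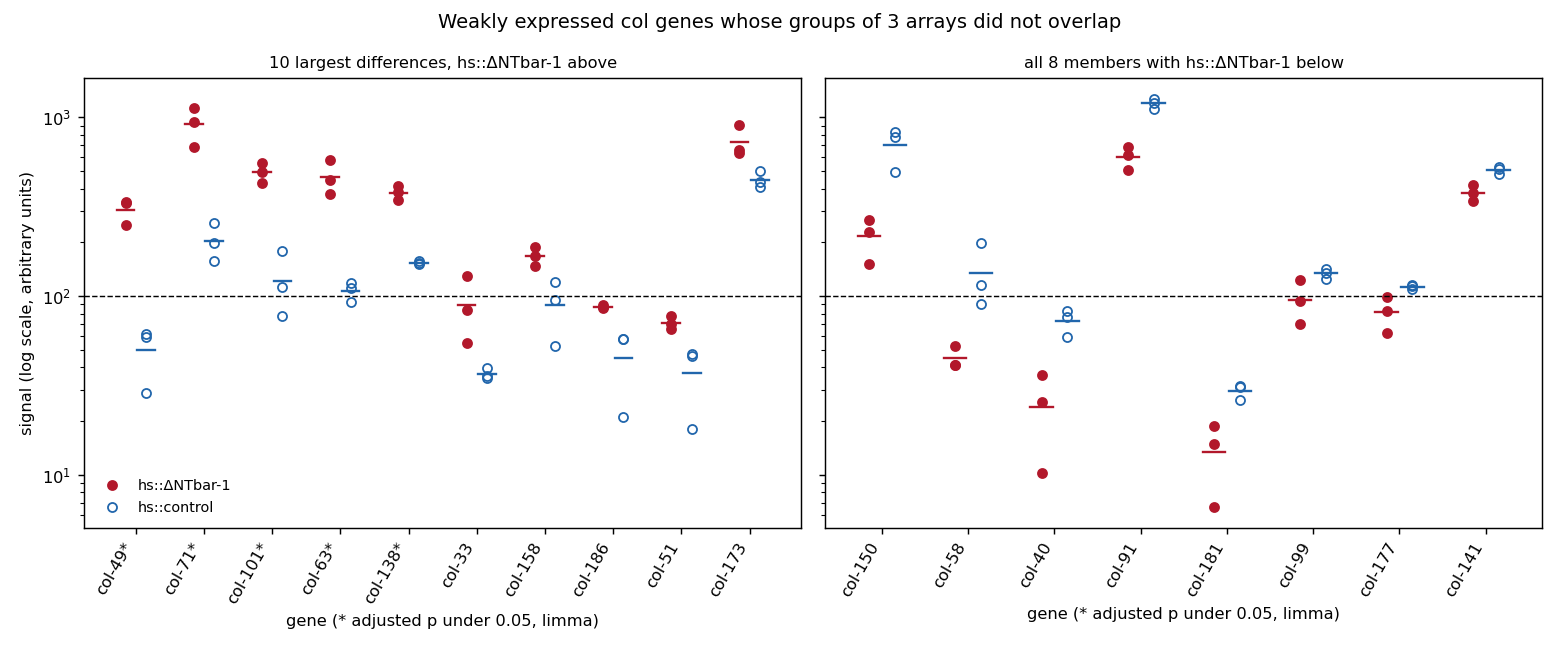
Signal per array (log scale, arbitrary units; horizontal bars are group means) for the 10 genes with the largest difference among the 18 whose hs::ΔNTbar-1 arrays all lay above the hs::control arrays (left), and for the 8 genes whose hs::ΔNTbar-1 arrays all lay below (right). Filled points are hs::ΔNTbar-1 and open points hs::control, asterisks mark the 5 genes with an adjusted p under 0.05, and the dashed line is a signal of 100, which separates the groups of col-49.

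Besides the 5 genes that rose, the 13 genes with hs::ΔNTbar-1 on top had log2 fold changes between 0.41 and 0.94, and none passed the test. col-33, which the study lists for high expression in dauer larvae, had a signal of 83.8, 129 and 55.0 in hs::ΔNTbar-1 worms, against 35.6, 34.7 and 39.8 in hs::control worms. Its 3 control arrays were close together and the difference lay within the dim range, with a log2 fold change of 0.94 ± 0.26 (adjusted p = 0.206, limma). col-158 had 188, 147 and 168 in hs::ΔNTbar-1 worms, against 95.8, 119.7 and 52.8 in hs::control worms, and 1 control array was over the line (log2 fold change 0.85, adjusted p = 0.246). col-186 and col-51 stayed under 100 on all 6 arrays. col-186 had 85.9, 87.2 and 88.8 in hs::ΔNTbar-1 worms, against 21.1, 57.5 and 57.6 in hs::control worms, and col-51 had 65.5, 77.7 and 69.5 in hs::ΔNTbar-1 worms, against 18, 47.3 and 46.0 in hs::control worms, with log2 fold changes of 0.82 and 0.76. In contrast, col-173 was bright in both groups, at 629.5, 902 and 659 in hs::ΔNTbar-1 worms, against 433, 408 and 500.3 in hs::control worms (a difference of 0.68 on the log2 scale, adjusted p = 0.184, limma). col-129 crossed the line in all arrays, with 145, 147 and 116 in hs::ΔNTbar-1 worms, against 86.1, 99.5 and 79.1 in hs::control worms, but its ratio of means was 1.54.

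No weakly expressed col gene was called lower, and the 8 whose hs::ΔNTbar-1 arrays all lay below the hs::control arrays had log2 fold changes from -1.62 to -0.42. col-150 had a signal of 152, 267 and 229 in hs::ΔNTbar-1 worms, against 774, 494 and 826 in hs::control worms. The difference was -1.62 ± 0.27 on the log2 scale (adjusted p = 0.0693, limma), all arrays of both groups being over the line. A second probe set of col-150 was dim, between 8.4 and 65.8, with overlapping groups and a log2 fold change of -0.35. col-91, just inside the limit for membership, had 507, 615 and 679 in hs::ΔNTbar-1 worms, against 1269, 1119 and 1209.9 in hs::control worms. Its fold change of -0.99 ± 0.14 missed the threshold narrowly (adjusted p = 0.0509, limma), and it passed in 6 of the other fits, among them quantile normalization (adjusted p = 0.0474) and a pseudocount of 64 (0.0131).

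col-58 and col-40 were dimmer. col-58 had 41.0, 52.8 and 41.2 in hs::ΔNTbar-1 worms, against 115, 90.6 and 198 in hs::control worms, so that 1 of its control arrays kept it from crossing the line (log2 fold change -1.24 ± 0.27, adjusted p = 0.132, limma). col-40 had 36.1, 25.6 and 10.2 in hs::ΔNTbar-1 worms, against 59.1, 76.2 and 83.0 in hs::control worms, all under the line (log2 fold change -1.20 ± 0.27, adjusted p = 0.147). The other 4 were col-181, col-99, col-177 and col-141, with log2 fold changes of -0.65, -0.45, -0.43 and -0.42. Among them col-177 had 62.5, 83.0 and 98.4 in hs::ΔNTbar-1 worms, against 114, 116 and 110.4 in hs::control worms, which puts its groups on the 2 sides of the line at a ratio of means of 0.718. For col-99, the transmembrane collagen, a second and dimmer probe set had a difference of 0.48, opposite in sign. The study's methods required at least a 2-fold change, a p of at most 0.05 and agreement in direction of at least 2 of the 3 arrays. These criteria were applied here to the log2 scale above, whereas the methods name RMA. The p used for them was unadjusted and came from each probe set's own variance, without the eBayes step of limma. So applied, the criteria counted the 5 genes that rose as higher and col-150, col-58 and col-40 as lower. Over all genes they counted 0.782% higher and 0.572% lower. With a pseudocount of 1, col-91, col-33, col-186, col-51 and col-181 were also past 2-fold (-1.01, 1.18, 1.06, 1.03 and -1.19). With 64, col-58 and col-40 were not (-0.83 and -0.64). The paper's text names col-91 among the changed collagens, but not col-63, col-58 or col-40.

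**Figure D3:**
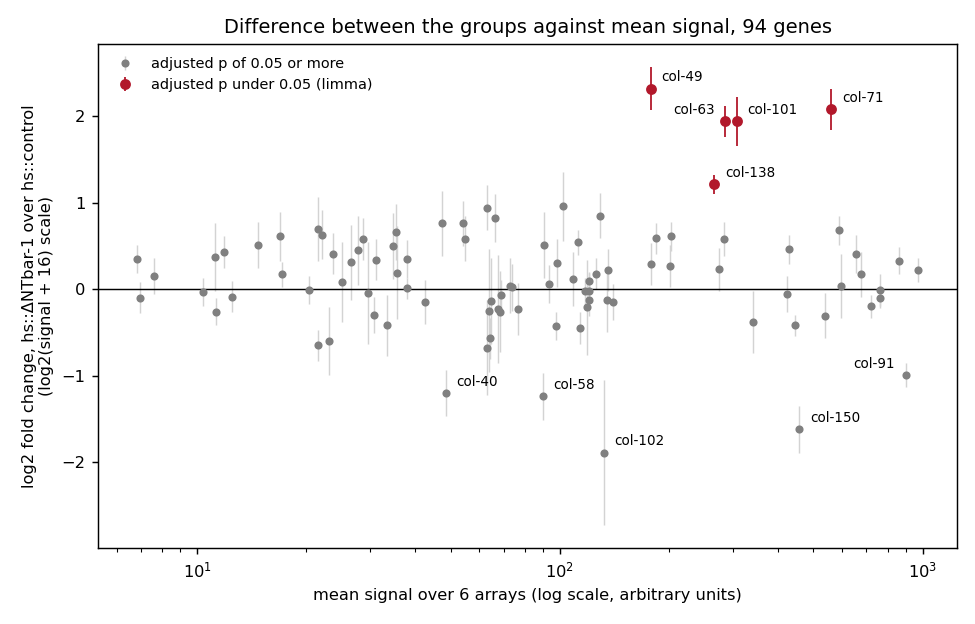
Log2 fold change of hs::ΔNTbar-1 over hs::control on the log2(signal + 16) scale, with its standard error from limma, against mean signal over 6 arrays (log scale) for the 94 genes. The 5 genes with an adjusted p under 0.05 lie at mean signals between 178 and 560.1, and col-102, the lowest point at -1.89, has the longest error bar.

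The lowest log2 fold change of the 94 genes belonged to a gene whose arrays disagreed within a group. col-102 had a signal of 9.8, 12.2 and 195 on the hs::ΔNTbar-1 arrays and 214, 108 and 255 on the hs::control arrays. Replicates 1 and 2 were near the floor and replicate 3 was within the range of the controls, so the groups overlapped, and the difference of -1.89 had an error of 0.84 (adjusted p = 0.407, limma). It was read from an _x_at set, whose probes can bind unrelated transcripts as well. A single low array within a group was also seen in col-60, with 6.4, 78.5 and 67.8 in hs::ΔNTbar-1 worms, against 71.1, 60.7 and 92.8 in hs::control worms, and in col-37, with 4.2, 85.9 and 105 in hs::ΔNTbar-1 worms, against 73.1, 32.6 and 81.4 in hs::control worms. In both it was hs::ΔNTbar-1 replicate 1 that was low. The arrays of col-36 were spread as well, with 142, 226 and 66.2 in hs::ΔNTbar-1 worms, against 44.5, 59.5 and 76.7 in hs::control worms, and hs::ΔNTbar-1 replicate 3 overlapped the controls (log2 fold change 0.96, adjusted p = 0.372). col-102, col-60, col-37 and col-36 were picked out after their values were seen.

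The stage at which a col gene is normally expressed most was taken from a list of the study, made from RNA sequencing of staged animals that is independent of these arrays. A gene belongs to a stage there if at least 50% of its developmental expression falls in that stage, and a separate list holds genes with high expression in dauer larvae. Of the 94 genes 91 were in it, and 4 were listed for 2 stages and are counted in both. The 50% rule allows this only for an even split. These 4 (col-164, col-183, col-50 and col-102) are also on the dauer list, and why they are listed for 2 stages was not examined. Of the 5 genes that rose, col-49, col-71, col-63 and col-138 were among the 19 L4 genes, and the fifth, col-101, was among the 21 adult genes. No gene called by limma was among the 13 L2 genes, the 3 L3 genes, the 5 late embryo genes, the 1 L1 gene or the 33 genes without a peak.

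The other L4 genes did not pass the test. The log2 fold changes of the 19 L4 genes ran from -0.68 to 2.32 with a median of 0.35, 11 were above 0 and 8 below, and the 4 that rose were also the only 4 of the 19 whose groups did not overlap. Among the L4 genes not called, col-130 was bright, with a mean of 478 in hs::ΔNTbar-1 worms and 600.5 in hs::control worms and a log2 fold change of -0.31, whereas col-105 and col-79 were dim, with 0.35 and 0.70. The 21 adult genes had a median of 0.12, with 2 genes fully above the controls (col-101 and col-129) and 3 fully below (col-181, col-40 and col-141). The 13 L2 genes had a median of 0.04, with col-54 above and col-58 below. Of the 33 genes without a peak 10 were fully above and 3 fully below, with a median of 0.23. The 23 genes of the dauer list had a median of 0.23 with 3 above (col-33, col-158 and col-51) and 2 below (col-150 and col-40), and the other 68 listed genes a median of 0.13 with 15 above and 6 below. Over all genes 11% were fully above and 10.5% fully below. Beside this, the shares were 21.1% and 0% of the L4 genes, 9.52% and 14.3% of the adult genes, and 7.69% each way of the L2 genes. They were 30.3% and 9.09% of the genes without a peak, 13% and 8.7% of the dauer list, and 22.1% and 8.82% of the other listed genes. Several of these are near the shares over all genes. Whether the stages differ from each other was not tested.

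**Figure D4:**
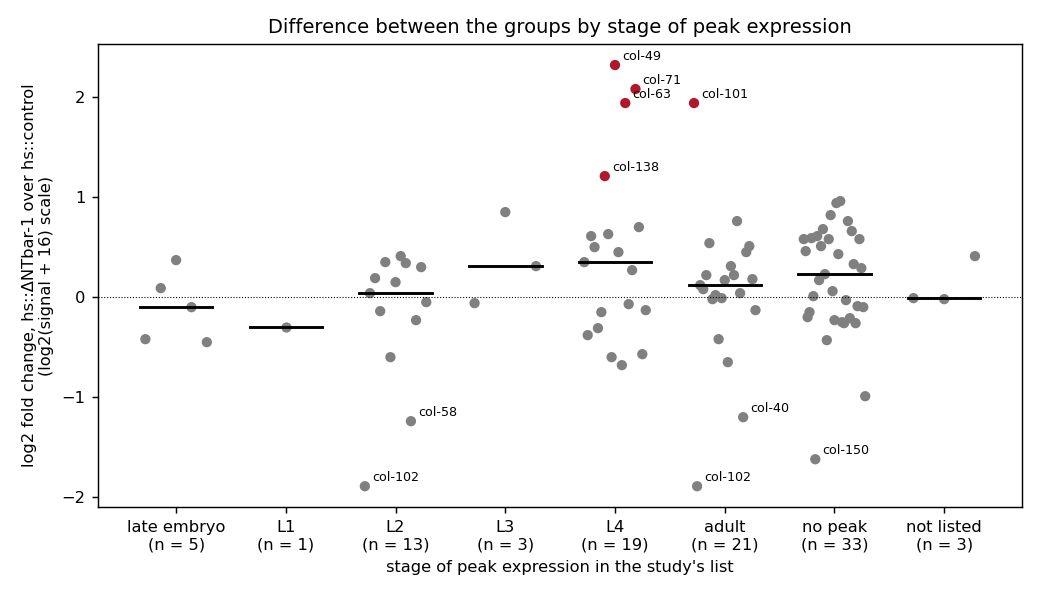
Log2 fold change of hs::ΔNTbar-1 over hs::control on the log2(signal + 16) scale for each of the 94 genes, by the stage in which the study's list places most of its expression; 4 genes appear in 2 stages, and horizontal bars are medians. Of the 5 genes with an adjusted p under 0.05 (dark red), 4 are L4 genes and 1 is an adult gene, and the medians run from -0.30 for the 1 L1 gene to 0.35 for the L4 genes.

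No gene next to the 5 that rose passed the test. The order of protein-coding genes in assembly WBcel235 placed 92 of the 94 genes, 14 of which lie next to another col gene and 10 next to another gene of this group. The 8 neighbours of those 5 with a probe set of their own had log2 fold changes between -0.76 and 0.76. col-150 lies beside col-149, which is bright, with means of 3233 in hs::ΔNTbar-1 worms, against 2785 in hs::control worms, and which had a difference of 0.21 where col-150 had -1.62. Of the pairs within the group, col-50 and col-51 had 0.45 and 0.76, col-183 and col-184 had 0.31 and 0.22, col-141 and col-142 had -0.42 and -0.01, col-126 and col-127 had -0.01 and -0.02, and col-44 and col-9 had -0.26 and 0.41. None of these differences passed the test, and a further probe set names both col-126 and col-127.

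Other cuticle genes and tissue markers were read beside the family. Of 19 cuticle collagens with names other than col, 1 rose, bli-1, which encodes a collagen of the adult cuticle's struts and had a log2 fold change of 2.34 (adjusted p = 0.00468, limma). Another, lon-3, missed the threshold narrowly, with a log2 fold change of 1.13 ± 0.17 (adjusted p = 0.0524, limma), and the paper names it among the up-regulated collagens. All 3 hs::ΔNTbar-1 arrays were above the controls in 10 of these 19 (52.6%, against 11% of all genes) and below in 0, with a median of 0.40. Their summed signal was 139829 to 157745 in hs::ΔNTbar-1 worms, against 101884 to 127246 in hs::control worms. Among the col genes over the limit col-38, another L4 gene, rose with 5458, 5706 and 4986 in hs::ΔNTbar-1 worms, against 1417, 1284 and 1220.4 in hs::control worms (a difference of 2.03 on the log2 scale, adjusted p = 0.00468, limma), and col-176 had a difference of 1.17 that did not pass (adjusted p = 0.124). None of 18 molting genes was called, but all 3 hs::ΔNTbar-1 arrays were above the controls in 7 of them (38.9%, against 11% of all genes). All 3 were below in 2 of them (11.1%, against 10.5%). At an unadjusted p under 0.05 by limma, 6 of the molting genes were higher (33.3%, against 7.25% of all genes) and 2 lower (11.1%, against 6.69%). The highest log2 fold change among them was that of mlt-10, at 1.13 (adjusted p = 0.13, limma). Their summed signal overlapped, at 43866 to 53201 in hs::ΔNTbar-1 worms, against 43324 to 47513 in hs::control worms. None of 13 genes of collagen modification and processing was called, with 3 fully above the controls (23.1%, against 11% of all genes) and 5 fully below (38.5%, against 10.5%).

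The 10 markers of the hypodermis, the epidermis that makes these collagens, summed to 44780 to 49325 in hs::ΔNTbar-1 worms, against 38507 to 42019 in hs::control worms, and the full sum was higher on every hs::ΔNTbar-1 array. Without the 3 collagens among them (dpy-7, rol-6 and sqt-3), the sum was 8003 to 9166 in hs::ΔNTbar-1 worms and 9161 to 9622 in hs::control worms, which overlap by a narrow margin. The 6 seam cell markers measured summed to 8609 to 10265 in hs::ΔNTbar-1 worms, against 7884 to 8517 in hs::control worms. That sum follows wrt-2, the brightest, with 6267, 4743 and 5303 in hs::ΔNTbar-1 worms, against 4089, 3391 and 3628 in hs::control worms. The next brightest, grd-10, went the other way, with 2376, 2521 and 2362 against 3014, 2935 and 2936. A rise of seam markers as a set is therefore not shown. The sums of pharynx markers (5 genes, 13842 to 15915 in hs::ΔNTbar-1 worms, against 17330 to 18558 in hs::control worms) and neuron markers (7 genes, 16782 to 17992 in hs::ΔNTbar-1 worms and 18593 to 19402 in hs::control worms) lay lower, and those of body wall muscle, intestine and germ line overlapped. Only 1 pharynx marker had its groups apart, tnt-4, with 4477, 4549 and 4835 in hs::ΔNTbar-1 worms, against 6352, 6281 and 6699 in hs::control worms. That is 20.0% of the pharynx markers fully below, against 10.5% of all genes. pha-4 went the other way, with a log2 fold change of 0.09. Of the 7 neuron markers 2 were fully below the controls (28.6%, against 10.5% of all genes) and 0 fully above (against 11%). Among them snb-1 went the other way, with a log2 fold change of 0.04. None of these marker genes passed limma's test, no hypodermis, seam, pharynx, intestine or neuron marker was under 100 on all arrays, and the part of these shifts in the results above was not tested.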

How the data were processed

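RNA of whole worms was hybridised by the authors to 6 Affymetrix C. elegans genome arrays, 3 per strain, and groups and replicate numbers were taken from the sample labels. The table deposited by the authors gives a linear intensity for each of 22625 probe sets. MAS5 and Partek are named in the submitters' processing notes, and RMA in the methods, but the values are linear, with a trimmed mean of 500.2 on every array. They were therefore taken to be MAS 5 intensity with a scaling of each array by the authors. Detection calls and scanner files were not used here, so the depth behind a signal is unknown, and the number of arrays limits the precision. The labels give a heat shock at 30 °C and 6 µg of RNA, and the methods give a higher temperature, less RNA and another extraction. The methods call the samples biological replicates.

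After removal of 77 control probe sets, 22548 remained, of which 20766 name 1 gene, 887 several and 895 none. The symbols of all 94 genes equal those in RefSeq (assembly WBcel235), which also gave the order of genes. Of the 94, 64 were read from plain _at sets, 26 from _s_at and 4 from _x_at sets, and 8 had another probe set. A further 17 probe sets name several genes with a col gene among them, and no gene was named from them. log2(signal + 16) was tested two-sided with limma 3.58.1 under R 4.3.3 (lmFit, eBayes) as hs::ΔNTbar-1 minus hs::control without further normalization, filter or replicate block, with Benjamini-Hochberg adjustment across the 22548 probe sets. The fit was tested on simulated arrays. Arrays of a group correlated at 0.979 to 0.981 and arrays of different groups at 0.973 to 0.976, and at most 0.297% of values were identical in a pair of arrays.

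The members and gene lists were chosen with earlier results of these data known. Named genes are those that passed limma's test or crossed the line, the 10 largest differences per direction among genes whose groups did not overlap, the 3 on each side of the limit of 1000, and col genes the study lists as changed, which are not independent of these arrays; others are named as examples of a stage, a pair or a split of arrays. Primer sequences are those of the study's oligonucleotide table. Alternatives were other scalings, pseudocounts, variance models, filters, probe set choices and membership limits, the replicate number as a block, and each array left out in turn.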

Additional observations from a re-analysis of the deposited data

How the results depend on the processing

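The 5 calls higher were the same genes under quantile normalization, centring on the median, a filter at the 40th percentile and a pseudocount of 64, and under a trended and robust variance model with 1 more, col-173. The count was 2 with a pseudocount of 1 and 2 without _s_at and _x_at sets. With 1 array left out it was 0 to 1. The labels do not say whether equal replicate numbers pair the samples. Deviations from the group means correlated at 0.0659, -0.0211 and 0.0647 for equal numbers and at -0.0908 to 0.026 for unequal ones. With 3 arrays per group these values cannot settle it. With the replicate block limma called 0 genes (16 higher and 9 lower at an unadjusted p under 0.05, against 6.82% and 6.52% of all genes) and 2 of all probe sets. The count of calls lower, 0, became 1 under quantile normalization and under centring on the median (col-91), 1 when the probe sets of a gene were averaged, 2 with a pseudocount of 64 (col-91 and col-150), 3 with the filter and 3 with the trended model (col-91, col-58 and col-150), and 3 by the methods' criteria. The median stayed between 0.07 and 0.22. At a line of 50, 1 gene crossed upward (col-33) and 1 downward (col-40). At a line of 200, 4 crossed upward (col-101, col-63, col-138 and col-49), and without a minimum fold 2 upward and 1 downward. With 1 array left out, 1 to 2 crossed upward and 0 to 1 downward. The sign turned for col-99 when its probe sets were averaged (0.01) and for col-14, whose values with 1 array left out ran from -0.17 without hs::control replicate 2 to 0.62. The cause of these differences was not tested. Membership limits of 500 and 2000 and membership by the hs::control mean alone gave 4 to 5 calls higher and 0 lower. Most genes here are dim, and with 3 arrays per group differences well over the spread of replicates went uncalled, such as -1.62 for col-150 and -1.24 for col-58. The smallest difference that was called was 1.21, for col-138.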

Other observations

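No single gene can be read from the 17 probe sets that name several genes with a col gene among them. The dimmest 4 of these sets were as follows. The set shared by col-62 and col-7 had 175, 229 and 235 in hs::ΔNTbar-1 worms, against 201, 237 and 276 in hs::control worms, the set of col-179 and col-178 had 274, 207 and 364 in hs::ΔNTbar-1 worms, against 256, 179.8 and 277 in hs::control worms, and the set of col-162 and col-161 had 1698, 2864 and 1768 in hs::ΔNTbar-1 worms, against 2748, 1786 and 2644 in hs::control worms. Their groups overlapped. The set of col-127 and col-126 had 182, 177 and 252 in hs::ΔNTbar-1 worms, against 298, 253 and 351 in hs::control worms, apart by a small margin, with a log2 fold change of -0.53 (adjusted p = 0.293, limma).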
